A study of Mus musculus with 8 samples.

Results

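Apolipoproteins and lipid efflux genes were followed across the cell types of the mouse brain and across 4 genotypes. The 10 genes were taken by name from the 32285 genes of the count table, as a list of secreted lipid carriers (Apoe, Clu, Apod), membrane exporters (Abca1, Abcg1, Abca7, Abca2), the uptake receptor Lrp1 and the regulators Nr1h3 and Mylip. All 10 were detected, with 1172 UMIs (unique molecular identifiers, each marking 1 captured RNA molecule) for Nr1h3 at the low end and 64174 for Apoe at the high end. The nuclei came from hemispheres of C57BL6/J mice aged 6 months, with olfactory bulb and cerebellum removed, and were sequenced as 8 libraries: 2 of WT, 2 of Cnp-/-, 2 of 5xFAD and 2 of Cnp-/- 5xFAD. Cnp-/- mice lack the myelin enzyme CNP in every cell and have defective myelin, and 5xFAD mice carry transgenes that are driven by a neuronal promoter and give rise to amyloid plaques. The Cnp-/- 5xFAD mice carry both. Only females are described for this cross. The study states in general terms that animals were pooled for its single-cell work, but its methods state pooling for another dataset only, so that whether these libraries hold tissue of 1 or of several mice is not settled. Comparisons of genotypes within a class or within homeostatic microglia rest on 4 libraries against 4, and those within the other microglial groups tested on 2 against 2. Comparisons between classes or between microglial groups set profiles of shared libraries against each other. The p-values measure the spread between these libraries or profiles.

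The libraries held 6801 to 8824 nuclei and 68905044 to 82399061 UMIs each, 61949 nuclei in all. The study's annotation gave 8 cell classes, here called astrocytes, microglia, mature oligodendrocytes (MOL), newly formed oligodendrocytes (NFOL), oligodendrocyte precursors (OPC), endothelial cells, pericytes and neurons. Of 46 marker genes of these classes, 44 had their highest mean level in the class they mark, the exceptions being Cspg4 (highest in pericytes) and Rgs5 (highest in endothelial cells). Of the 2472 microglia, 205 were macrophages in the finer annotation and 181 carried no finer label. Among 61494 barcodes 454 occurred in 2 or more libraries. In MOL the targeted gene Cnp was at 283 and 321 counts per 1000000 UMIs (CPM) in WT and 219 and 265 CPM in 5xFAD, against 23.1 and 23.2 CPM in Cnp-/- and 24 and 32.8 CPM in Cnp-/- 5xFAD, as the labels state.

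The brain makes its own lipoproteins, since those of the blood do not cross the intact blood-brain barrier. Glia secrete apolipoproteins, ABC transporters in the plasma membrane load them with cholesterol and phospholipid, and receptors of the LDL receptor family take the particles up. When sterols accumulate in a cell, oxysterols activate the nuclear receptors LXR, one of which is encoded by Nr1h3, and LXR switches on Abca1, Abcg1, Apoe and Mylip, so that export rises and uptake falls. Myelin is the largest store of cholesterol in the brain, and APOE is the strongest common genetic risk factor for late-onset Alzheimer's disease.

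In the GRCm38 annotation all 10 are protein-coding genes. The carriers lie with Apoe at chr7:19696109-19699188 (minus strand), Clu at chr14:65968483-65981547 (plus strand) and Apod at chr16:31296192-31314808 (minus strand). The exporters lie with Abca1 at chr4:53030787-53159895 (minus strand), Abcg1 at chr17:31057675-31117988 (plus strand), Abca7 at chr10:79996494-80015572 (plus strand) and Abca2 at chr2:25428703-25448540 (plus strand). Of the others, Lrp1 lies at chr10:127538161-127621148 (minus strand), Nr1h3 at chr2:91184061-91202834 (minus strand) and Mylip at chr13:45389742-45412022 (plus strand). Abca2 and Nr1h3 share chromosome 2 and Abca7 and Lrp1 share chromosome 10, and no members are neighbours.

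Abca1 is a textbook target of LXR and is compared between microglial subpopulations below, and so the sequence before its start is shown. These are the 250 bases upstream of the annotated start of Abca1 (RefSeq, GRCm38.p6, chr4:53159896-53160145, minus strand, written 5′ to 3′ in the direction of transcription), with the capitals marking the letters TGACC and TAACC and the 5 bases between them, which lie within a DR4-type element (a direct repeat of hexamers spaced by 4 bases):
Abca1: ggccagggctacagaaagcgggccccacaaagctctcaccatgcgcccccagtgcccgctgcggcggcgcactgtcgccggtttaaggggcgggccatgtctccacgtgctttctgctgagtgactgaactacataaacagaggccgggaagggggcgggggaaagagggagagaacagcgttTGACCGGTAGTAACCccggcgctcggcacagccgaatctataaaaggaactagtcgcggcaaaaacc
The marked stretch began at base 184 of these bases and ended 52 bases before the start. The search used windows of 300 bases, 250 before and 50 after each start. The marked letters were spelled TGACCNNNNNTAACC with the Abca1 window in view, on both strands, and 16 of 32851 mouse promoter windows (0.0487%) held a match. The consensus repeat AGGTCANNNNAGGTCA was in 5 windows (0.0152%), none of them a member's. An E-box, CACGTG, was in 2349 windows (7.15%), and the Abca1 window held 1 at base 104, outside the marked stretch. Windows were at hand for 8 of the 10 genes (not Clu and Abcg1). A match is a description of letters and not of binding.

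The secreted carriers had their highest levels in different cell types. Apoe, which encodes the main lipid carrier of brain lipoproteins, was highest in astrocytes at 2570 ± 1238 CPM (mean ± SD of 8 libraries, range 1362 to 5037). Endothelial cells followed at 817 ± 164 CPM, microglia at 735 ± 577 CPM, NFOL at 602 ± 258 CPM, pericytes at 403 ± 163 CPM, OPC at 390 ± 210 CPM, MOL at 225 ± 125 CPM and neurons at 26.3 ± 27.3 CPM. The ranges of astrocytes and endothelial cells did not overlap, nor did those of MOL and neurons, whereas all other neighbours in this order overlapped. The highest microglial value, 2072 CPM in WT replicate 2, reached into the astrocyte range, but astrocytes of that library stood at 5037 CPM.

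Clu, which encodes clusterin (apolipoprotein J), a secreted chaperone carried on lipoproteins, was at 652 ± 257 CPM in astrocytes (383 to 1033). Its next level, 117 ± 61.8 CPM in NFOL, did not reach the astrocyte range. The NFOL profiles also held RNA of astrocyte markers, with 8 such genes summing to 4676 to 10977 CPM, against 20891 to 24272 CPM in astrocytes. The part of such RNA in the NFOL values of Clu, Apoe and the other members was not tested. Pericytes, endothelial cells and OPC had means of 42.2 to 51.9 CPM with overlapping ranges. Microglia were at 15.3 ± 12.4 CPM, neurons at 7.04 ± 5.88 CPM and MOL at 2.10 ± 1.97 CPM.

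Apod, which encodes a lipocalin that binds small hydrophobic molecules, stood apart from the other carriers by its class. It was highest in MOL, at 511 ± 276 CPM (274 to 1122), with no overlap with endothelial cells at 137 ± 46.7 CPM. NFOL (84.7 ± 61.9 CPM) and microglia (80.7 ± 29.3 CPM) overlapped with endothelial cells and with each other. Astrocytes, at 22.2 ± 15.8 CPM, were among the low classes for this carrier.

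**Figure D1:**
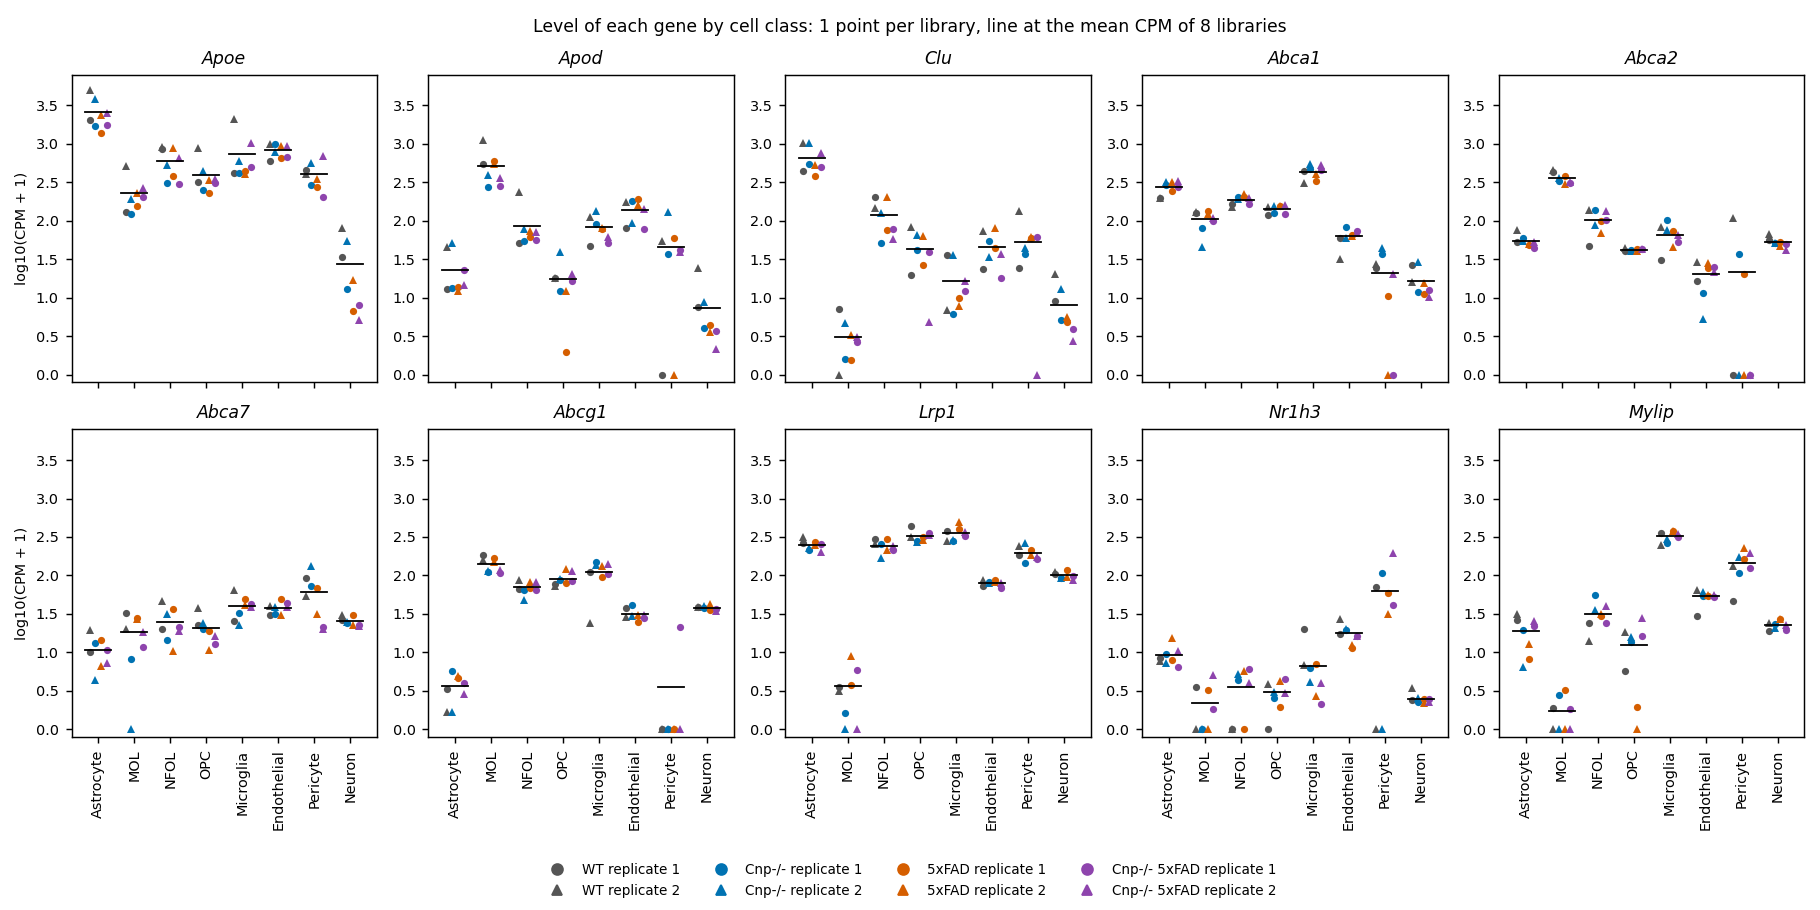
Levels of the 10 genes in the 8 cell classes. Each panel is 1 gene, the vertical axis is log10(CPM + 1), circles are replicate 1 and triangles replicate 2 of each genotype, and the line is the mean of 8 libraries. Apoe and Clu peak in astrocytes, Apod and Abca2 in MOL and Mylip in microglia, each without overlap with the next class.

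Among the exporters, Abca1, which moves cholesterol and phospholipid onto lipid-poor apolipoproteins, was highest in microglia at 434 ± 82.3 CPM (308 to 539). Astrocytes followed at 269 ± 51.6 CPM, NFOL at 186 ± 25.2 CPM, OPC at 142 ± 17.5 CPM, MOL at 105 ± 29.8 CPM, endothelial cells at 62.3 ± 14.8 CPM, pericytes at 19.7 ± 15.9 CPM and neurons at 15.6 ± 7.21 CPM. Each class overlapped with its neighbours in this order.

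Abcg1 passes cholesterol to particles that already hold lipid. It was at 139 ± 29.9 CPM in MOL, 111 ± 40.2 CPM in microglia, 89.7 ± 17.8 CPM in OPC and 69.2 ± 12.4 CPM in NFOL, with overlapping ranges. Astrocytes held 2.61 ± 1.47 CPM of Abcg1 (0.664 to 4.68; 37 UMIs in all 8 libraries), below every other class except pericytes, where 1 UMI was found. Of the exporters, astrocytes thus showed Abca1 near the top of its order and Abcg1 near the bottom.

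Abca2, an endolysosomal transporter known from myelin-forming cells, was at 359 ± 59.3 CPM in MOL (299 to 458), above NFOL at 101 ± 33.6 CPM with no overlap. All other classes had means of 19.2 to 64.9 CPM. Abca7, a phospholipid transporter linked to phagocytosis and to Alzheimer's disease risk, varied less between classes. Its highest mean, 60.6 ± 38.4 CPM in pericytes, rested on 22 UMIs, and microglia (38.6 ± 13.5 CPM) and endothelial cells (37.1 ± 6.57 CPM) overlapped with it. Astrocytes were lowest, at 9.82 ± 4.91 CPM.

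Lrp1, a large endocytic receptor of APOE-bearing particles, was at 352 ± 76 CPM in microglia, 324 ± 52.9 CPM in OPC, 249 ± 36.1 CPM in astrocytes, 243 ± 44.1 CPM in NFOL and 195 ± 39.8 CPM in pericytes, each overlapping with the next. Neurons (99 ± 10.2 CPM) lay below pericytes and above endothelial cells (79.1 ± 6.27 CPM), without overlap with either. MOL held 2.61 ± 2.69 CPM of Lrp1 (24 UMIs in 8 libraries), with no overlap with any other class.

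Mylip, the ubiquitin ligase IDOL that marks LDL receptors for degradation, was highest in microglia at 324 ± 50 CPM (250 to 382). Pericytes followed at 146 ± 56.3 CPM without overlap, and MOL were lowest with 9 UMIs in 8 libraries. Nr1h3, encoding LXR-alpha, was sparse everywhere. It reached 16.6 ± 5 CPM in endothelial cells, 8.13 ± 2.87 CPM in astrocytes and 5.62 ± 5.7 CPM in microglia, and the pericyte mean of 62.2 ± 63.5 CPM came from 26 UMIs with 2 of 8 libraries at 0. For all 10 genes the class with the highest level was the same when UMIs were first scaled to 10000 per nucleus and averaged over nuclei, and the whole order of classes was the same for 8 of the 10.

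By a fixed rule, the 3 genes whose mean levels over the 8 classes correlated best with each of 4 members were taken from 14210 genes, on the log2(CPM + 1) scale. They were Pdlim5, Slc25a17 and Nudt9 for Apoe (Pearson's r = 0.964, 0.959 and 0.935), Id2, Ndrg2 and Tubb2b for Clu (r = 0.993, 0.988 and 0.987), Pde8a, Mal and Mtcp1 for Apod (r = 0.976, 0.974 and 0.973), and Nrbp2, Tdrd6 and Ipo13 for Abca2 (r = 0.987, 0.981 and 0.979). The 8 points come from the same libraries and differ in depth and nuclei, and so these values are descriptions. Mal encodes a proteolipid of compact myelin, and Ndrg2 is widely used as an astrocyte marker.

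A level in a class does not say how much of a transcript that class holds in the whole hemisphere, because classes differ in number and in RNA per nucleus. Neurons were 72.8% of nuclei and held 92.6% of all UMIs on average. Against that, astrocytes held 54.1 ± 6.49% of Apoe UMIs (40.6 to 59.8% over 8 libraries) with 7.78% of the nuclei and 66.1 ± 10.3% of Clu UMIs. MOL held 46.7 ± 10.6% of Apod UMIs with 9.08% of the nuclei.

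For the genes other than Apoe, Clu and Apod neurons held the largest mean share of the transcript, although each had its highest level per UMI in another class. For Abca7 neurons had rank 4 of the 8 classes, at 24.4 ± 3.55 CPM. Neurons held 49.8 ± 14.2% of Abca1 UMIs, with astrocytes at 21.8 ± 4.65% and microglia at 11.9 ± 6.22%. Neurons held 71.2% of Nr1h3, 83.7% of Mylip, 85.1% of Abca2, 87.2% of Lrp1, 88.2% of Abcg1 and 93.4% of Abca7 UMIs. Only for Abca7 was the neuronal share as high as the 92.6% of all UMIs that neurons held. These counts had been corrected for ambient RNA with CellBender before deposit, and UMIs that came from free RNA cannot be told apart from those of the nuclei.

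**Figure D2:**
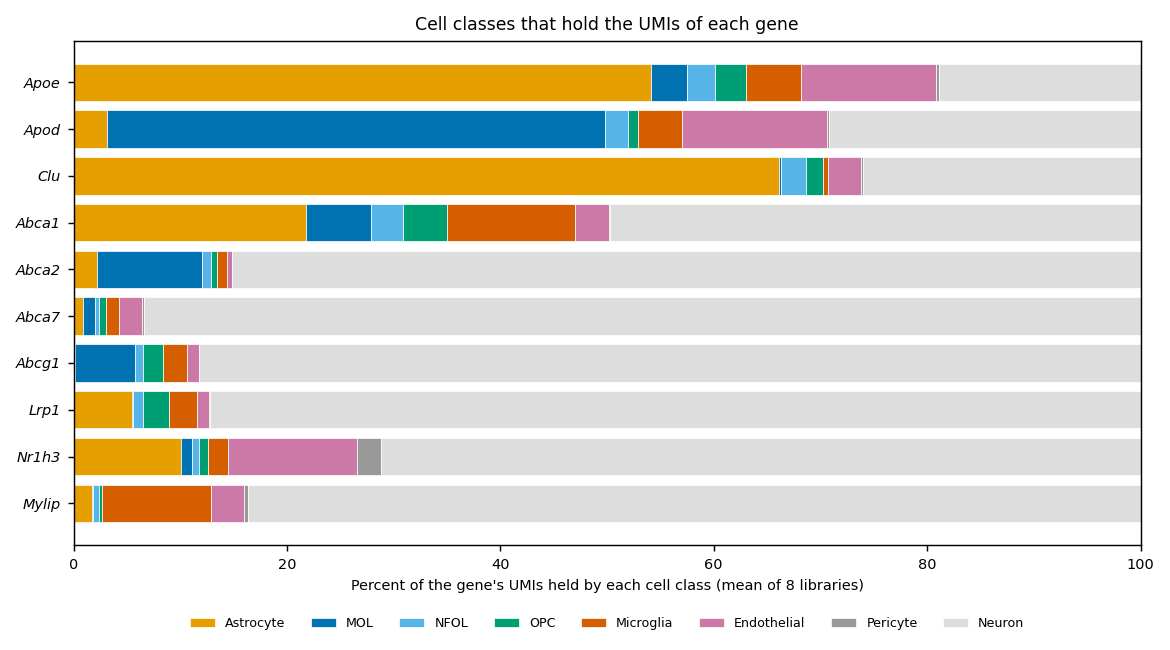
Share of each gene's UMIs by cell class. Each bar is 1 gene, its segments are the mean percent over 8 libraries, and segments sum to 100%. Astrocytes hold the largest segment for Apoe and Clu, MOL for Apod and neurons for the other 7 genes.

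The microglial share of these transcripts had higher means with 5xFAD, as had the number of microglia. They were 4.82 to 6.95% of nuclei in the 4 libraries with 5xFAD and 1.16 to 3.78% in the 4 without, without overlap. The microglial share of 9 of the 10 genes had a higher mean with 5xFAD. It was 14.02% against 6.28% for Mylip, 3.77% against 1.41% for Lrp1 and 1.85% against 0.596% for Abca7, and for each of these 3 genes the groups did not overlap (exact permutation test, two-sided p = 0.0286, which is the lowest value 4 against 4 can reach; adjusted p = 0.19 over 20 tests). Over all genes together, microglia held 0.821 to 1.35% of the UMIs with 5xFAD and 0.231 to 0.702% without (means 1.04 and 0.468%), which did not overlap either, so that a higher share with 5xFAD is not particular to these transcripts. How many single genes of the whole table lacked overlap in this way was not counted. The shares of Apoe (7.47% against 2.82%, exact p = 0.0571, adjusted p = 0.229) and of Abca1 (16.2% against 7.67%, exact p = 0.0857, adjusted p = 0.245) overlapped between the groups. None of the 20 tests passed the adjusted threshold of 0.05, and 3 had an unadjusted exact p below 0.05. When every library was given the mean composition of nuclei, the difference for Mylip turned to -0.891 percentage points. With Cnp loss the means were higher for 8 of the 10 genes, with overlap for all 10. Over all genes together the microglial share of UMIs was 0.782% with Cnp loss and 0.724% without, with overlap too.

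Genotype effects were then tested within each class on UMI counts summed per library, with edgeR's quasi-likelihood test and Benjamini-Hochberg adjustment over all genes tested. Cnp loss is the mean of Cnp-/- and Cnp-/- 5xFAD minus the mean of WT and 5xFAD on the log2 scale, the 5xFAD effect is built likewise, and a gene is called at an adjusted p below 0.05. A fall in such a sum cannot be told apart from fewer cells of a state with a high level within the class.

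In MOL of Cnp-deficient mice, all 6 genes of the list that could be tested had lower fitted levels, and 0 of 6 were called by edgeR, beside 0.765% of all 8761 genes. Of the 6, 3 had an unadjusted p below 0.05, as had 1052 of all genes. Apod was at 274 and 387 CPM in Cnp-/- and 279 and 353 CPM in Cnp-/- 5xFAD, against 541 and 1122 CPM in WT and 591 and 540 CPM in 5xFAD. All 4 libraries without CNP thus lay below all 4 others (log2 fold change -1.01, SE 0.25, edgeR adjusted p = 0.138). WT replicate 2 was the highest library, and without it the log2 fold change was -0.70.

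Abcg1 was at 111 and 113 CPM in Cnp-/- and 106 and 118 CPM in Cnp-/- 5xFAD, against 184 and 160 CPM in WT and 167 and 149 CPM in 5xFAD. Its groups did not overlap either (log2 fold change -0.48, SE 0.135, adjusted p = 0.184). Abca1 was at 80.4 and 45.1 CPM in Cnp-/- and 97.6 and 108 CPM in Cnp-/- 5xFAD, against 124 and 129 CPM in WT and 132 and 122 CPM in 5xFAD (log2 fold change -0.58, SE 0.193, adjusted p = 0.264). Abca7 was at 0 to 17.4 CPM without CNP and 19 to 31.1 CPM with it (log2 fold change -1.69, SE 0.733, adjusted p = 0.42).

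Of the 6 genes, 4 thus did not overlap between the groups, beside 9.9% of all genes tested, and the median log2 fold change was -0.53 over the 6 against -0.03 over all genes. Apoe (log2 fold change -0.31, SE 0.411, adjusted p = 0.822) and Abca2 (-0.18, SE 0.122, adjusted p = 0.633) overlapped. The Apoe estimate rested on the 511 CPM of WT replicate 2, without which it was 0.35. DESeq2 on the same sums called 2 of the 6, Apod (-1.03, adjusted p = 8.67e-05) and Abcg1 (-0.51, adjusted p = 0.0431), beside 5.9% of all genes. Without Cnp-/- replicate 1, edgeR called 2 of the 6, Abca1 (-0.81, adjusted p = 0.049) and Abca7 (adjusted p = 0.0493), beside 2.76% of all genes. In that fit Cnp-/- is 1 library with 0 UMIs of Abca7, its spread comes from the 3 other genotypes, and no size is given for Abca7.

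Markers of other oligodendrocyte stages lay on both sides in this comparison. Of 7 marker genes of MOL, 6 had positive fitted changes (median log2 fold change 0.11) and 0 were called. Of 4 NFOL markers, 3 had negative ones (median -0.25) and 1 was called, Enpp6 (-1.67, adjusted p = 0.016). The 2 neuronal markers tested were negative (median -1.26) and so was the 1 OPC marker tested (-2.75), with 0 called. Of the 4 astrocyte markers tested 3 were negative (median -0.43), and the 1 microglial marker tested was positive (0.68), again with 0 called. The part of these in the values of the members was not tested.

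**Figure D3:**
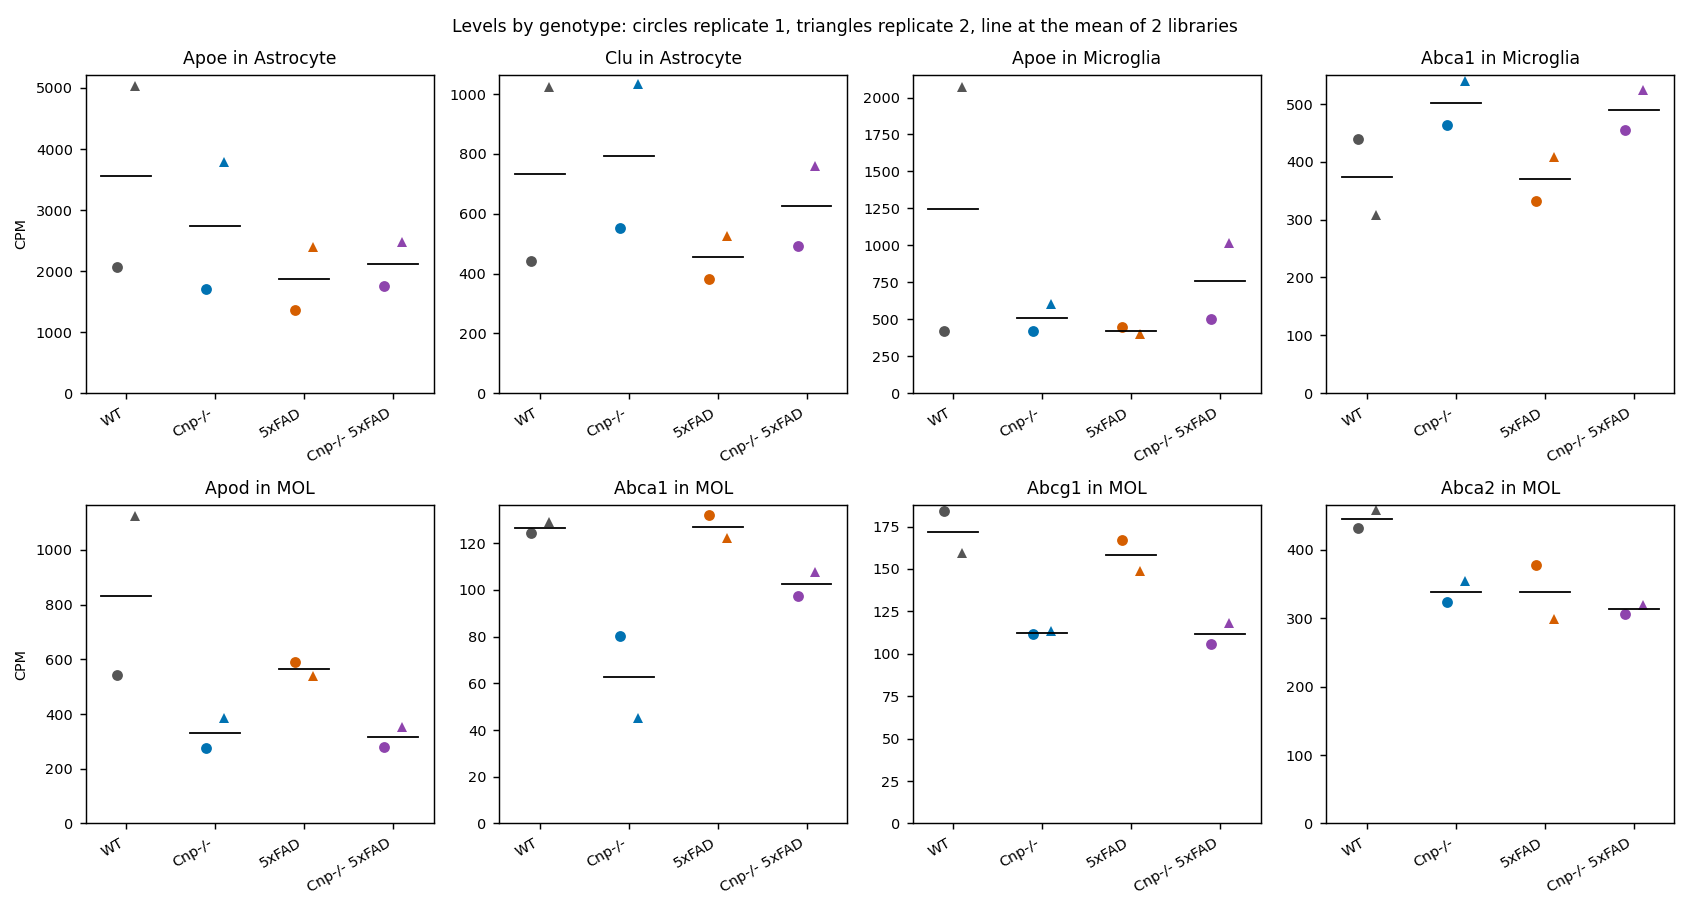
Levels by genotype for 8 pairs of gene and cell class. The vertical axis is CPM, each point is 1 library (circles replicate 1, triangles replicate 2) and the short lines are genotype means. Apod, Abca1 and Abcg1 in MOL are lower in all 4 libraries without CNP than in the 4 others, and Abca1 in microglia is higher in all 4.

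In MOL, 5xFAD and the interaction of both mutations gave 0 calls among the 6 genes and 0% of all genes. At an unadjusted p below 0.05 there were 0 of the 6 in both, and 326 and 299 of all genes, and DESeq2 called 0 of the 6 with 12 and 11 of all genes.

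In microglia the values of Abca1 lay the other way. Abca1 was at 463 and 539 CPM in Cnp-/- and 455 and 524 CPM in Cnp-/- 5xFAD, against 439 and 308 CPM in WT and 332 and 409 CPM in 5xFAD. The lowest library without CNP was above the highest with it. Of all 9621 genes tested, 6.19% did not overlap between the groups in either the one or the other direction. The log2 fold change was 0.43 (SE 0.147, edgeR adjusted p = 0.272), and 0 of the 9 genes tested were called, beside 0.904% of all genes. Of the 9, 1 had an unadjusted p below 0.05, as had 1139 of all genes, and DESeq2 called 0 of the 9 and 172 of all genes.

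The microglial class mixes states, and its mix differed between genotypes. Macrophages were 14.3 and 24.1% of the nuclei of the class in WT and 3.3 to 11.0% in the other libraries. Homeostatic microglia were 60.8 and 71.4% in WT and 29.1 to 41.7% in the others. Myelin-DAM, a group of disease-associated microglia described below, were 12.04 to 27.4% in the 4 libraries without CNP and 0 to 1.94% in the 4 with it, and the myelin transcript enriched (MyTE) group 11.1 to 19.5% and 3.8 to 9.09%. Amyloid-DAM, the other such group, were 27.5 to 35.6% in the 4 libraries with 5xFAD and 0 to 4.62% in the 4 without. A change in the class with Cnp loss or with 5xFAD therefore compares nuclei of different clusters. All 5 macrophage markers had negative fitted changes with Cnp loss (median -1.36) and all 7 MOL markers had positive ones (median 1.17, 3 called). Of the markers of microglia themselves 7 of 8 were negative (median -0.37, 0 called). Among the markers tested of other classes, 4 of 5 of astrocytes (median 0.55), both of OPC and all 4 of pericytes were positive with 0 called, 2 of 3 of endothelial cells were positive with 1 called up, 2 of 4 of NFOL were positive with 1 called up, and 4 of 5 of neurons were negative with 0 called. The part of such RNA in the values of Abca1 was not tested. When only nuclei labelled as homeostatic microglia or as 1 of the 2 DAM groups were kept, the log2 fold change of Abca1 was 0.82 (SE 0.127, adjusted p = 0.0358), 1 call among the members beside 0.484% of 6618 genes. That choice leaves out macrophages, MyTE and the 181 nuclei with no finer label. When only macrophages and MyTE were left out, an alternative added after the values were seen, Abca1 was at 0.64 (SE 0.14, adjusted p = 0.122) and 0 members were called, beside 0.152% of 8530 genes. Apoe in the whole class overlapped between the groups (log2 fold change -0.18, adjusted p = 0.919), with 2072 CPM in WT replicate 2 and 399 to 1016 CPM in the 7 other libraries. Macrophages held 66.9% of the Apoe UMIs of the class in WT replicate 2. The nuclei with no finer label held 49 of 155 and 106 of 356 Apoe UMIs of the class in the WT libraries. Without macrophages and MyTE the Apoe estimate was 0.34 (SE 0.378, adjusted p = 0.849), and with the nuclei of no finer label left out too it was 1.73 (SE 0.33, adjusted p = 0.0907). Over the whole class without WT replicate 2 it was 0.58.

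Abcg1 (log2 fold change 0.55) and Lrp1 (-0.28) in microglia did not pass the test for Cnp loss. For 5xFAD 0 of 9 genes were called, beside 0.229% of all genes, and 1 of the 9, Lrp1 (log2 fold change 0.33, adjusted p = 0.515), had an unadjusted p below 0.05, as had 902 of all genes. For the interaction 0 of 9 were called beside 0% of all genes. There 1 member and 715 of all genes had an unadjusted p below 0.05, and DESeq2 called 0 members and 20 genes. The member was Apoe (interaction 2.07 on the log2 scale, adjusted p = 0.608), and its estimate was 1.48 without macrophages and MyTE and -0.87 with the nuclei of no finer label left out too.

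The opposite estimates for Abca1 in microglia and MOL were tested directly, in a comparison chosen after these values were seen. Both classes come from the same 8 libraries, and the model held a term for each library. The effect of Cnp loss in microglia minus that in MOL was 1.08 on the log2 scale (SE 0.282, edgeR adjusted p = 0.161), beside a median of 0.24 over all 11783 genes. The difference was 1.11 for Apod (SE 0.235, adjusted p = 0.108) and 1.18 for Abcg1 (SE 0.388, adjusted p = 0.29). Of 9 genes tested 0 were called, beside 0.136% of all genes, with 3 members and 1061 genes at an unadjusted p below 0.05 and 0 members and 53 genes by DESeq2. For the 5xFAD effect 0 of 9 were called beside 0.0255% of all genes, with 0 members and 516 genes at an unadjusted p below 0.05 and 0 members and 12 genes by DESeq2. Against astrocytes, the microglial effects gave 0 of 10 calls for Cnp loss (0% of 13007 genes; 0 members and 831 genes at an unadjusted p below 0.05; 0 members and 18 genes by DESeq2) and 0 of 10 for 5xFAD, beside 0.0308% of all genes (0 members and 797 genes; 0 members and 12 genes by DESeq2).

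**Figure D4:**
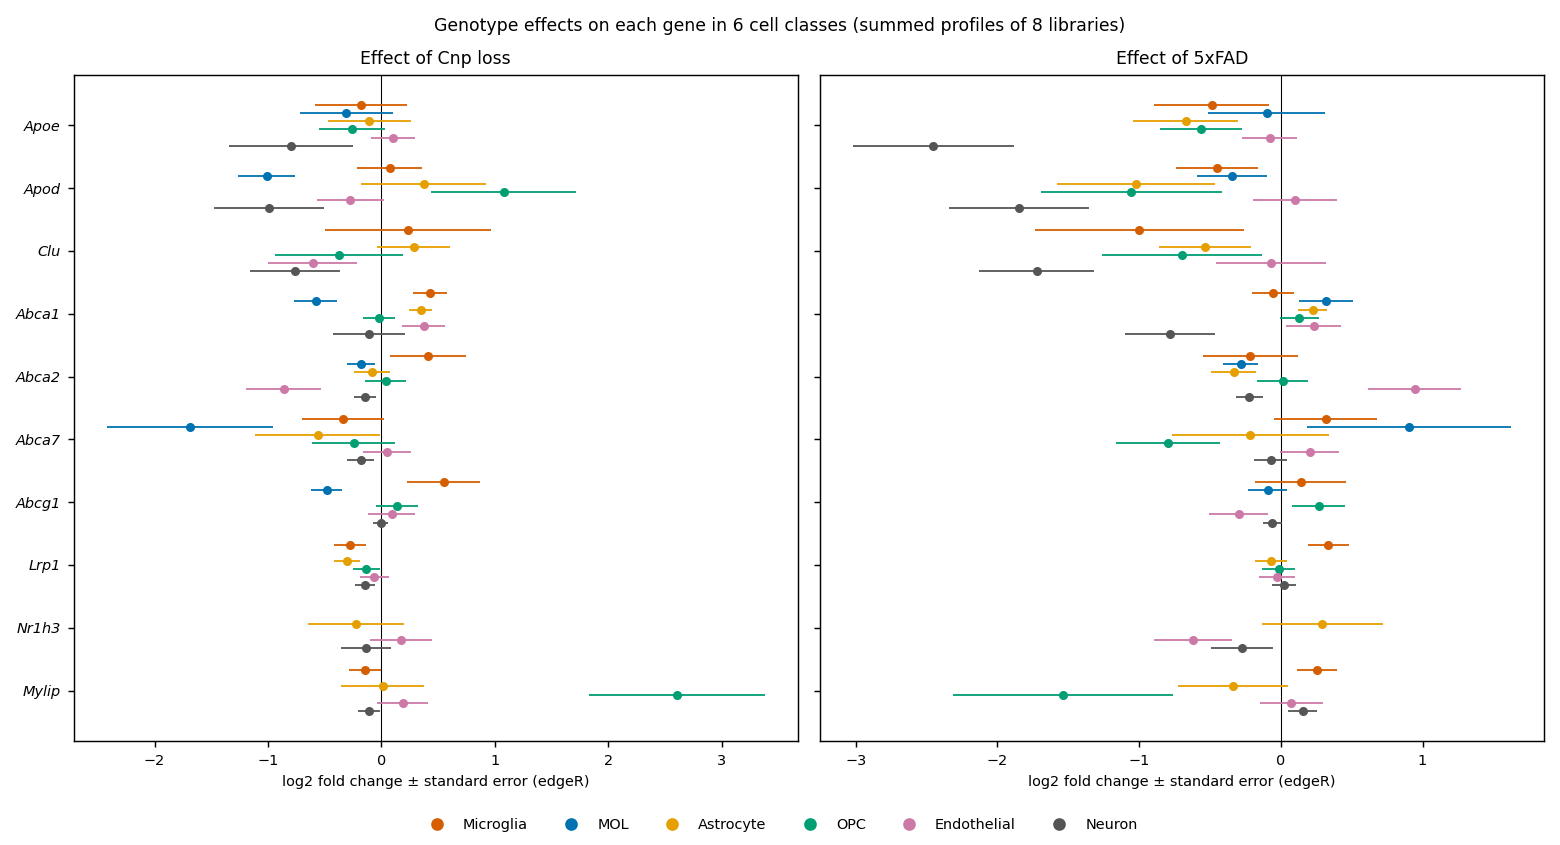
Fitted effects of Cnp loss and of 5xFAD on the 10 genes in 6 cell classes. The horizontal axis is the log2 fold change with bars of 1 SE, from edgeR on sums per library. No effect shown passed an adjusted p of 0.05, and Abca1 lies above 0 in microglia and below 0 in MOL for Cnp loss.

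Astrocytes, which held the most Apoe, showed no genotype effect on it that stood out from the spread. Apoe was at 2065 and 5037 CPM in WT, 1700 and 3781 CPM in Cnp-/-, 1362 and 2387 CPM in 5xFAD and 1751 and 2476 CPM in Cnp-/- 5xFAD. Replicate 2 was higher in each of the 4 genotypes, and over the 8 classes this was so in 28 of 32 pairs of genotype and class. The log2 fold change was -0.11 for Cnp loss (SE 0.369, adjusted p = 0.996) and -0.67 for 5xFAD (SE 0.37, adjusted p = 0.974). Without WT replicate 2 the estimate for Cnp loss was 0.29.

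Clu in astrocytes had the same order of replicates, with 443 and 1025 CPM in WT, 552 and 1033 CPM in Cnp-/-, 383 and 526 CPM in 5xFAD and 494 and 759 CPM in Cnp-/- 5xFAD. Its log2 fold change for 5xFAD was -0.54 (adjusted p = 0.974). Abca1 was at 198 and 196 CPM in WT and 246 and 317 CPM in 5xFAD, and at 290 and 314 CPM in Cnp-/- and 270 and 324 CPM in Cnp-/- 5xFAD (log2 fold change for Cnp loss 0.35, SE 0.104, unadjusted p = 0.0125, adjusted p = 0.818). Both WT libraries were lowest, and the groups with and without CNP overlapped. In astrocytes 0 of the 9 genes tested were called for Cnp loss, for 5xFAD or for the interaction, each beside 0% of 11809 genes. At an unadjusted p below 0.05 there were 2, 0 and 1 members and 641, 574 and 493 genes, and DESeq2 called 0 members in each and 7, 2 and 9 genes.

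In OPC 0 of 9 genes were called for Cnp loss and 0 of 9 for 5xFAD, each beside 0% of 9264 genes, with 1 and 0 members and 393 and 407 genes at an unadjusted p below 0.05 and 0 members and 1 and 3 genes by DESeq2. In endothelial cells 0 of 10 were called for Cnp loss, beside 0.0425% of all genes, and 0 of 10 for 5xFAD, beside 0%, with 1 and 1 members and 945 and 614 genes at an unadjusted p below 0.05, and 0 members and 42 and 2 genes by DESeq2. Pericytes and NFOL were only described, since libraries with as few as 19 and 22 of their nuclei gave few UMIs.

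Neuronal profiles had low levels of the carriers per UMI, and these levels differed between libraries. Apoe was at 32.4 and 79.4 CPM in WT, 12.1 and 53.7 CPM in Cnp-/-, 5.66 and 15.9 CPM in 5xFAD and 6.98 and 4.08 CPM in Cnp-/- 5xFAD. The 4 values with 5xFAD were low, and the range of the other 4 overlapped with them. The log2 fold change was -2.45 for Apoe (SE 0.569, adjusted p = 0.28), -1.72 for Clu (adjusted p = 0.28) and -1.85 for Apod (adjusted p = 0.285). Of 10 genes 0 were called by edgeR, beside 0% of all genes, with 5 members and 2542 genes at an unadjusted p below 0.05. DESeq2 called 3 of the 10, Apoe (adjusted p = 0.0156), Clu (6.04e-04) and Apod (0.00238), beside 2.34% of all genes. For Cnp loss 0 of 10 were called, beside 0.0185%, with 0 members and 1756 genes at an unadjusted p below 0.05 and 0 members and 181 genes by DESeq2. As in MOL, no member tested had a positive fitted change with Cnp loss (median log2 fold change -0.14, against 7.87e-05 over all genes).

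Markers of several other cell types, but not of all, lay lower in these neuronal profiles with 5xFAD. All 8 astrocyte markers, all 7 MOL markers and all 5 endothelial markers were detected in the neuronal sums and had negative fitted changes with 5xFAD, with medians of -0.81, -0.64 and -1.63 and 0 called. The NFOL, OPC, pericyte and fibroblast markers tested were all negative too. Of 8 microglial markers 3 were positive and 5 negative (median -0.07). Of 4 macrophage markers tested 1 was positive and 3 negative (median -0.19). All 5 general neuronal markers were positive (median 0.09). All 3 markers of inhibitory neurons were negative (median -0.53), and of 2 of excitatory neurons 1 was positive and 1 negative (median -0.27). The summed astrocyte markers were at 546 to 782 CPM in neurons of the libraries with 5xFAD and 764 to 965 CPM in the others. Those of endothelial cells were at 1.76 to 3.72 CPM and 4.5 to 10.5 CPM, without overlap. Neuronal Apoe was 0.165 to 1.58% of the astrocyte level of the same library. The part of such RNA in the neuronal values was not tested.

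Within microglia, the finer annotation separates homeostatic microglia, macrophages, MyTE microglia and 2 groups of disease-associated microglia (DAM), amyloid-DAM and myelin-DAM. DAM are the state microglia take up around plaques and damaged myelin, with raised lipid handling and phagocytosis genes. Profiles with at least 20 nuclei are described. The subpopulations were formed by clustering these same counts, so differences between them are descriptions.

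Apoe was highest in macrophages, at 2190 ± 1280 CPM (5 libraries), then in myelin-DAM at 874 ± 499 CPM (4 libraries), amyloid-DAM at 478 ± 340 CPM (4 libraries), MyTE at 396 ± 136 CPM (6 libraries) and homeostatic microglia at 233 ± 142 CPM (8 libraries). Each overlapped with the next. In each of the 5 libraries with both, macrophages were above homeostatic microglia, by 5.57 to 20.8 times.

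The exporters followed other orders. Abca1 was at 924 ± 173 CPM in myelin-DAM, 745 ± 156 CPM in macrophages, 534 ± 151 CPM in homeostatic microglia, 418 ± 115 CPM in amyloid-DAM and 300 ± 54.2 CPM in MyTE. Abcg1 was highest in myelin-DAM, at 249 ± 29.5 CPM (218 to 283), above amyloid-DAM at 145 ± 22.4 CPM (114 to 167) without overlap. Macrophages held 11.1 ± 10.5 CPM of Abcg1, below every other subpopulation except single homeostatic profiles. Macrophages thus combined high Apoe and Abca1 with low Abcg1.

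Lrp1 and Mylip were lower in MyTE and macrophages than in the 3 other subpopulations. Mylip was at 540 ± 68.3 CPM in amyloid-DAM, 496 ± 88.4 CPM in homeostatic microglia, 400 ± 89.1 CPM in myelin-DAM, 175 ± 26.5 CPM in MyTE and 105 ± 68.4 CPM in macrophages. Lrp1 was at 525 ± 114 CPM, 478 ± 113 CPM and 426 ± 136 CPM in homeostatic microglia, amyloid-DAM and myelin-DAM, at 219 ± 60.7 CPM in MyTE and at 182 ± 86.1 CPM in macrophages. Clu and Nr1h3 had at most 6 and 2 UMIs in any of the 5 subpopulations.

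MyTE carried the 2 genes that mark MOL in this list. Abca2 was at 210 ± 47.4 CPM in MyTE against means of 12 to 14.1 CPM in the 4 others, and Apod at 221 ± 61.4 CPM against 14.7 to 42.5 CPM. Neither overlapped with the other subpopulations. The 7 MOL markers summed to 7832 to 10454 CPM in MyTE, to 14462 to 17865 CPM in MOL and to at most 938 CPM in the other subpopulations. Transcripts taken up with myelin and nuclei captured together cannot be told apart here.

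**Figure D5:**
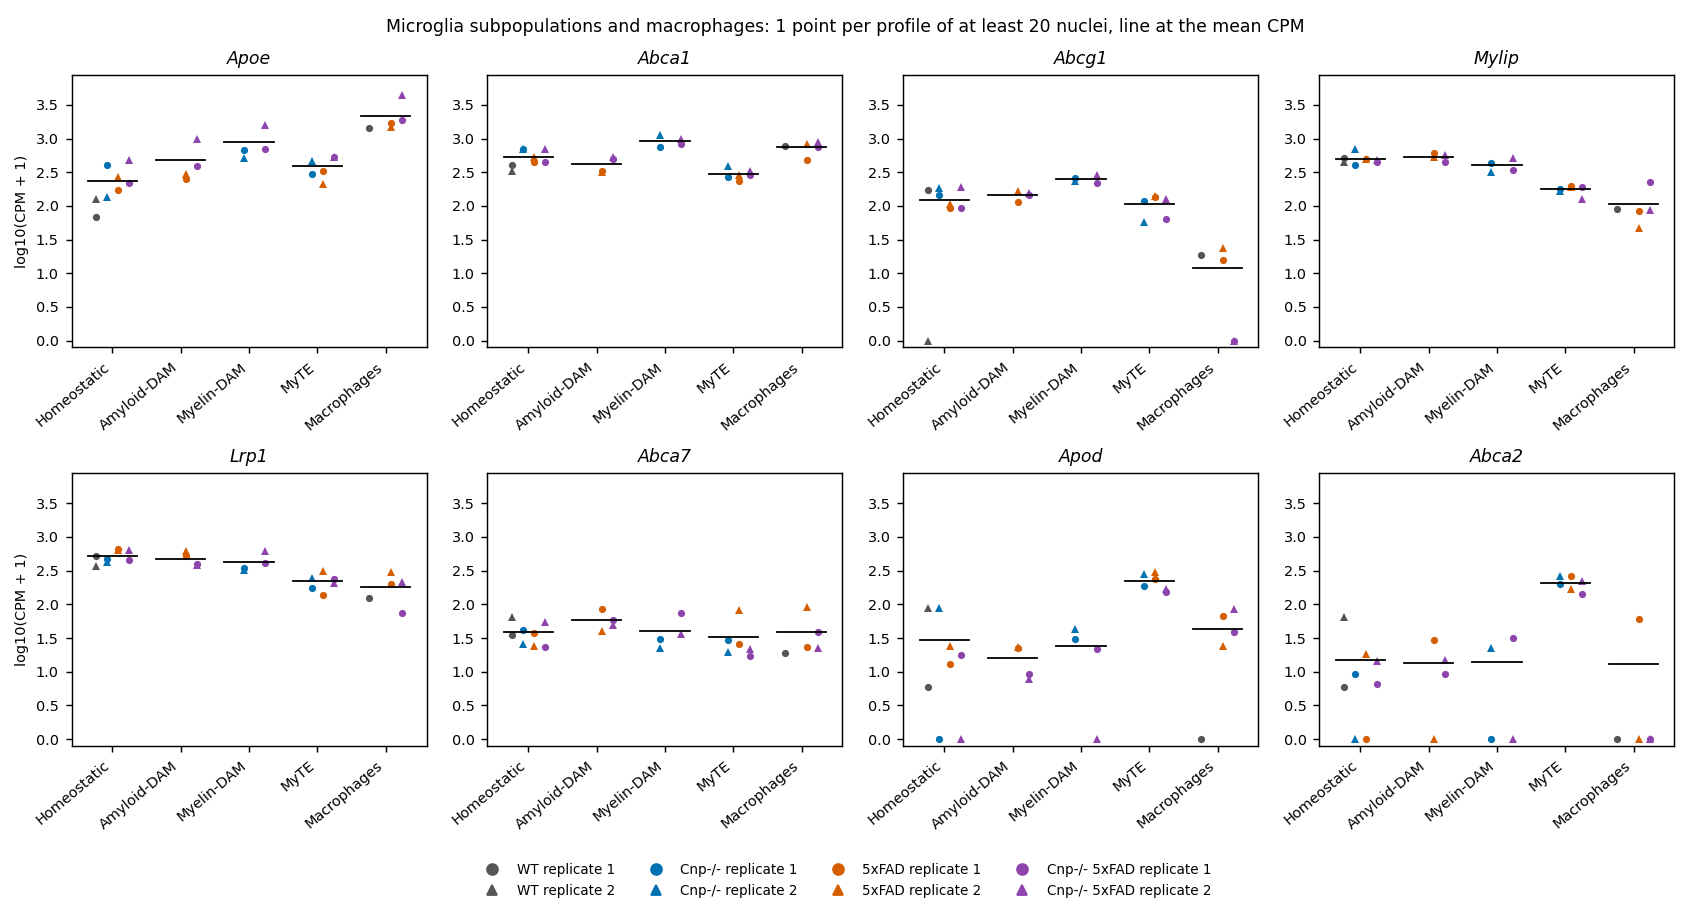
Levels of 8 of the genes in 5 subpopulations of microglia and macrophages. Each panel is 1 gene with log10(CPM + 1) on the vertical axis, each point is 1 library with at least 20 nuclei (circles replicate 1, triangles replicate 2) and the line is at the mean CPM. Apoe is highest in macrophages, Abca1 and Abcg1 in myelin-DAM, and Abca2 and Apod in MyTE.

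Between the 2 DAM groups, Abca1 was at 759 and 1145 CPM in myelin-DAM of Cnp-/- and 818 and 974 CPM in that of Cnp-/- 5xFAD, against 325 and 313 CPM in amyloid-DAM of 5xFAD and 502 and 532 CPM in that of Cnp-/- 5xFAD. All 4 myelin-DAM profiles were above all 4 amyloid-DAM profiles, which come from 6 libraries, as both Cnp-/- 5xFAD libraries give a profile to each group. The log2 fold change was 1.09 (SE 0.149, edgeR adjusted p = 0.00195), and within the 2 Cnp-/- 5xFAD libraries, which hold both groups, the ratio was 1.63 and 1.83. In the other profiles myelin-DAM came from Cnp-/- and amyloid-DAM from 5xFAD, so that subpopulation and genotype cannot be told apart there. The model held no term for library. Of the 5 members tested Abca1 was the 1 call, beside 2.68% of 3919 genes. The p for Abca1 measures the spread between profiles, and it is no independent test, as the clustering used these counts. Higher Abca1 and Apoe in myelin-DAM than in amyloid-DAM had already been reported by the study from these same data. Among markers, the 1 endothelial marker tested was called up (1.12), and the 1 astrocyte marker was positive (0.49). The 1 MOL marker (-0.76), both NFOL markers and 5 of 7 microglial markers were negative, with 0 called. The part of such RNA in these Abca1 values was not tested.

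Of the 4 other members tested, Apoe had a log2 fold change of 0.91 (SE 0.317, adjusted p = 0.201), Abcg1 of 0.74 (SE 0.231, adjusted p = 0.142), Mylip of -0.48 (adjusted p = 0.233) and Lrp1 of -0.24 (adjusted p = 0.644). Apoe was called as well when either Cnp-/- 5xFAD library was left out (adjusted p = 0.0318 and 0.0334, beside 0.838 and 1.26% of all genes), in fits where each Cnp-/- 5xFAD group is 1 profile, with its spread taken from the other groups. Within amyloid-DAM, Cnp-/- 5xFAD against 5xFAD gave 0 calls of 5 beside 0% of all genes, with 3 members and 118 genes at an unadjusted p below 0.05 and 0 members and 2 genes by DESeq2. Apoe was at 390 and 981 CPM in amyloid-DAM of Cnp-/- 5xFAD and 246 and 296 CPM in that of 5xFAD (log2 fold change 1.29, adjusted p = 1.00), and without Cnp-/- 5xFAD replicate 1 it was called (1.82, adjusted p = 0.00554), beside 0.043% of all genes. That fit sets the 1 profile at 981 CPM against the 5xFAD profiles, with the spread taken from the other groups. Higher Apoe in Cnp-/- 5xFAD than in 5xFAD within amyloid-DAM had been reported by the study from these same data. Within myelin-DAM, Cnp-/- 5xFAD against Cnp-/- gave 0 calls of 5 beside 0%, with 0 members and 242 genes at an unadjusted p below 0.05 and 0 members and 3 genes by DESeq2.

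Homeostatic microglia, compared across genotypes, gave a positive estimate for Abca1 too. It was at 705 and 693 CPM in Cnp-/- and 453 and 709 CPM in Cnp-/- 5xFAD, against 397 and 329 CPM in WT and 454 and 534 CPM in 5xFAD, and these groups overlapped (log2 fold change 0.58, SE 0.166, adjusted p = 0.539). Apoe was at 397 and 136 CPM in Cnp-/- and 221 and 480 CPM in Cnp-/- 5xFAD, against 67.9 and 127 CPM in WT and 170 and 267 CPM in 5xFAD (log2 fold change 1.18, SE 0.385, adjusted p = 0.667). For Cnp loss 0 of 6 genes were called, beside 0.11% of 4566 genes, and 0 of 6 for 5xFAD, beside 0.0657%. At an unadjusted p below 0.05 there were 2 and 1 members and 246 and 271 genes, and DESeq2 called 0 members in either and 5 and 14 genes.

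Of 49 further genes of lipid transport, few were called. In microglia 2 of the 35 tested rose with Cnp loss, beside 0.904% of all genes, and 1 rose with 5xFAD, beside 0.229%. Lpl, which encodes lipoprotein lipase, was at 0 and 5.8 CPM in WT microglia (0 and 1 UMI). It was at 86.4 and 81.1 CPM in Cnp-/-, 79.9 and 117 CPM in 5xFAD and 123 and 126 CPM in Cnp-/- 5xFAD. Its log2 fold change was 2.87 for Cnp loss (edgeR adjusted p = 0.0278) and 3.04 for 5xFAD (adjusted p = 0.0208). The ranges with and without CNP overlapped, as did those with and without 5xFAD, and only the WT libraries were near 0. The shares of the DAM groups in the class differed between these genotypes, with amyloid-DAM at 27.5 to 35.6% of its nuclei with 5xFAD and 0 to 4.62% without. Apobec1, the cytidine deaminase that edits Apob mRNA, was at 318 to 383 CPM in microglia of the 4 libraries without CNP and 157 to 261 CPM in the others (log2 fold change 0.81, adjusted p = 0.0365). These libraries also differ in the makeup of the class, since myelin-DAM were 12.04 to 27.4% of its nuclei without CNP and 0 to 1.94% with it, and homeostatic microglia held 92.1 to 198 CPM of Apobec1. Without macrophages and MyTE its log2 fold change was 1.22 (adjusted p = 0.0384). Between the DAM groups Apobec1 was the 1 called of 19 tested, beside 2.68% of all genes. It was at 954 to 1236 CPM in myelin-DAM and 307 to 553 CPM in amyloid-DAM (log2 fold change 1.52, edgeR adjusted p = 5.69e-04). This is no independent test, as the clustering used these counts. The study had already reported Apobec1, together with Apoe and Abca1, as higher in myelin-DAM in these same data.

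In MOL 1 of 26 fell with Cnp loss, beside 0.765% of all genes. This was Abca8a, an ABC transporter of the same A subfamily as Abca1, Abca2 and Abca7, at 198 to 235 CPM in the 4 libraries without CNP and 395 to 460 CPM in the others (log2 fold change -0.88, adjusted p = 0.0283). Abca8a lies at chr11:110025634-110095978, on the chromosome of the targeted gene Cnp (chr11:100574904-100591729). Whether sequence near the targeted allele takes part in its values was not tested. With a replicate block, or without any 1 of the 6 WT, 5xFAD and Cnp-/- 5xFAD libraries, its adjusted p was 0.058 to 0.134, with the log2 fold change between -0.93 and -0.83. In astrocytes 0 of 33 were called in either comparison. In neurons 0 of 47 were called for Cnp loss, and Abca8a was at 2.66 to 5.34 CPM without CNP and 7.55 to 10.0 CPM with it. In every class other than MOL and neurons the Abca8a ranges with and without CNP overlapped. In microglia the calls of Lpl and Apobec1 were likewise lost when single libraries were left out, with adjusted p up to 0.116 for Lpl and 0.19 for Apobec1, and their log2 fold changes kept their sign. The Lpl call for Cnp loss was also lost without macrophages and MyTE (log2 fold change 2.59, adjusted p = 0.0646).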

How the data were processed

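Nuclei from 8 libraries were used, 2 of each genotype as labelled. The authors aligned 10x Genomics 3' reads with Cell Ranger 6.1.2 to mm10, removed ambient RNA with CellBender, filtered and annotated nuclei in Seurat, and deposited raw UMI counts per gene and nucleus in 1 table of all nuclei and 1 table of microglia and macrophages. The treatment of doublets and of intronic reads is not given in the sources used here, and no doublet caller was run. The counts of the 2291 nuclei in both tables were equal.

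Counts were summed per library and cell class, or per microglial subpopulation with at least 20 nuclei, and given as CPM. Sums were tested by edgeR 4.0.16 (R 4.3.3; filterByExpr, TMM, quasi-likelihood, two-sided, Benjamini-Hochberg over all genes, threshold 0.05), with DESeq2 1.42.0 as an alternative. Shares of UMIs were compared by exact permutation of 4 against 4 libraries. The comparison of microglia with MOL was added after values were seen. On simulated counts with 200 changed genes, the fit recovered 13.4% of 2-fold and 47% of 4-fold changes in MOL (8301 genes), 23.9 and 75.8% in microglia (9081 genes) and 31.3 and 71.2% in astrocytes (11435 genes) for Cnp loss, and called 6, 12 and 10 unchanged genes there. Of 1.5-fold changes the fit recovered 1.49% in MOL, 1.49% in microglia and 2.99% in astrocytes. For microglia minus MOL (10528 genes) it recovered 0% of 1.5-fold, 1.49% of 2-fold and 24.2% of 4-fold changes. That simulation gave each gene the same mean share of counts in both classes, unlike the real profiles, and so these rates may not hold for them. The biological coefficient of variation was 0.466 in MOL, 0.297 in microglia and 0.292 in astrocytes.

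All 10 members were named in every class, with Cnp as the check of the labels, called genes of the 49-gene list (up to 4 per direction) and the 3 genes most like each of Apoe, Apod, Clu and Abca2 among genes of at least 10 CPM in 1 class. Members, lists and tests were chosen with earlier results of these data known. Gene positions came from the annotation of GRCm38 and the promoter from RefSeq. Over all genes tested, same-numbered libraries did not deviate together (correlations of -0.203 to 0.189, at most 1 of 6 pairs per class over 0.1), so replicate numbers were not taken as pairs, although Apoe was higher in replicate 2 in most pairs. The alternatives were DESeq2 size factors, no filter on low counts, DESeq2, a replicate block, nuclei with at least 1000 UMIs, microglia without MyTE, macrophages and nuclei of no finer label (and, added later, with the latter kept), the mean composition of nuclei and leaving out each library.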

Additional observations from a re-analysis of the deposited data

Results flagged for a closer look

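Abca1 lay on opposite sides in microglia and MOL. With Cnp loss every microglial library without CNP was above every library with it, and every MOL library without CNP was below, and the 2 log2 fold changes (0.43 and -0.58) differed by 1.01. In a joint model of both classes the difference was 1.08 (edgeR adjusted p = 0.161). The microglia of these libraries differ in the makeup of the class by subpopulation.

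Mylip in astrocytes differed in opposite directions within the pairs of genotypes, with no overlap in either pair. It was at 25.1 and 30.5 CPM in WT, 18.7 and 5.5 CPM in Cnp-/-, 7.2 and 11.7 CPM in 5xFAD and 20.7 and 24.2 CPM in Cnp-/- 5xFAD. On the log2(CPM + 1) scale of group means the 2 changes with Cnp loss differed by 2.30, and so did those with 5xFAD. The interaction was tested, at 2.57 with an edgeR adjusted p of 0.99, on 249 UMIs in 8 libraries. Mylip was at 324 CPM in microglia against 18.0 CPM in astrocytes, and in the same interaction 4 of the 5 microglial markers tested in astrocytes were positive (median 2.69, 0 called). All 4 neuronal markers tested (median 1.40) and 5 of 7 MOL markers (median 0.62) were positive too. Of the astrocyte markers 4 of 8 were positive (median 0.02), and the 1 endothelial marker was negative (-0.93). The part of RNA of other cells in the Mylip values was not tested. Mylip in OPC also split by genotype, with changes for 5xFAD of -3.01 without and 0.60 with Cnp loss, a difference of 3.62 that was not tested and rests on 48 UMIs.

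Lrp1 in OPC was at 434 and 317 CPM in WT, 281 and 268 CPM in Cnp-/-, 315 and 288 CPM in 5xFAD and 356 and 330 CPM in Cnp-/- 5xFAD. The changes with Cnp loss, -0.45 without and 0.19 with 5xFAD, differed by 0.636 on the log2 scale, as did those for 5xFAD, and this difference was not tested.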

How the results depend on the processing

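Under the alternatives run, the highest class was the same for 10 of 10 members, and no share test passed the adjusted threshold. Without the filter on low counts, members called went from 0 to 2 each for 5xFAD and the interaction in astrocytes and for microglia minus MOL, and to 1 each in MOL, OPC and homeostatic microglia for Cnp loss, in OPC for 5xFAD, in the microglial interaction and in amyloid-DAM of Cnp-/- 5xFAD against 5xFAD; between the DAM groups they moved from 1 to 2. DESeq2 called 2 in MOL for Cnp loss and 3 in neurons for 5xFAD, and microglia without MyTE, macrophages and nuclei of no finer label gave 1 for Cnp loss, but 0 when the nuclei of no finer label were kept (added after the values were seen). Leaving out single libraries gave 0 to 2 members in MOL and for microglia minus MOL, 0 to 1 in amyloid-DAM and 1 to 2 between the DAM groups. The causes were not tested.

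Apoe changed direction most often. Leaving out single libraries, its log2 fold change for Cnp loss ranged from -0.44 to 0.29 in astrocytes, from -0.65 to 0.35 in MOL and from -0.53 to 0.58 in microglia, and its interaction in astrocytes from -0.15 to 1.32. Without MyTE, macrophages and nuclei of no finer label the microglial values were 1.73 for Cnp loss and -0.87 for the interaction, and with the nuclei of no finer label kept 0.34 and 1.48.

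With the mean composition of nuclei, the difference in microglial share turned for Abca2 (-0.232 percentage points), Abcg1 (-0.0718), Apod (-0.343), Clu (-0.173) and Mylip (-0.891) with 5xFAD and for Abca7 (-0.0593) and Lrp1 (0.0649) with Cnp loss. Leaving out single libraries it ranged from -0.222 to 0.412 for Abca7, from -0.718 to 0.489 for Lrp1 and from -1.72 to 3.13 for Mylip with Cnp loss, and from -1.07 to 0.626 for Nr1h3 with 5xFAD.

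With the replicate number as a block, Abca1 between the DAM groups was at 1.09 (adjusted p = 9.84e-04) and 0 members were called in the other comparisons it was run for (not those between classes), and over all genes the block gave 23 calls against 67 in MOL, 29 against 87 in microglia for Cnp loss and 11 against 22 in microglia for 5xFAD. Counts over all genes ranged from 2 to 544 in MOL and from 0 to 423 in microglia for Cnp loss, from 8 to 300 in microglia for 5xFAD, from 39 to 203 between the DAM groups and from 0 to 506 in neurons for 5xFAD. From none in the main test, the count without the filter was 352 and 358 in astrocytes for 5xFAD and Cnp loss and 389 for the interaction. In endothelial cells leaving out single libraries gave 0 to 97 genes against 5 for Cnp loss and 0 to 142 against 0 for 5xFAD, the 142 without WT replicate 1. Few UMIs were counted for Nr1h3 outside neurons, for Clu, Lrp1 and Mylip in MOL and for all genes in pericytes.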
